A study of Homo sapiens with 16 samples.

Results

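The genes described here are 10 that carry mRNA through the ribosome or are classic members of the TOP class of mRNAs: the elongation factors EEF1A1, EEF1B2, EEF1D, EEF1G and EEF2, together with TPT1, PABPC1, EIF3E, EIF4B and RACK1. They were taken from a list of names. Of the 10, 8 had a row among the 18079 genes of the table of read counts that was used, and all 8 passed the filter on low counts. A variation of splicing was listed for EEF1D, EIF3E and RACK1, so that 9 members had a value of either kind. The counts of EEF1B2 and EEF1D were not analysed here.

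The measurements came from HL60, an established human line of acute promyelocytic leukaemia cells, grown with 20% fetal bovine serum. Wild-type HL60 cells received SY-351, which inhibits the kinase CDK7, at 50 nM, or DMSO as the control, for 5 h, and polyadenylated RNA was sequenced. There were 4 numbered replicates per group, each with 2 technical repeats, which makes 16 records and 8 columns of counts. Both groups were this line, labelled wild type. The comparison asks how steady-state mRNA levels stood after 5 h of CDK7 inhibition. CDK7 is the catalytic subunit of the kinase module of TFIIH, a general transcription factor of RNA polymerase II. The labels do not tell whether replicates were grown as separate cultures, and a p-value here therefore covers no more than the spread among these samples, which may be technical.

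During elongation eEF1A brings each aminoacyl-tRNA to the ribosome as a complex with GTP, the eEF1B complex (encoded by EEF1B2, EEF1D and EEF1G) recharges eEF1A with GTP, and eEF2 moves the ribosome along by a codon. The mRNAs of these factors, of ribosomal proteins and of several initiation factors begin with a C followed by an unbroken run of pyrimidines, the 5′ terminal oligopyrimidine or TOP motif. Through it, mTORC1 and the protein LARP1 set how much of these mRNAs is translated, and LARP1 also stabilises them. They are among the most abundant mRNAs of proliferating cells.

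The motif can be read at the annotated starts of these genes. Each line below gives 15 bases before and 15 from the first transcribed base on the transcript's strand, from RefSeq on GRCh38.p14, and capitals mark the pyrimidines (C or T) that run unbroken from that base onward. They are shown because such a run at the start of an mRNA is the TOP motif. The members were chosen by name and not by this run.
EEF1A1, chr6:73521018-73521047, minus strand: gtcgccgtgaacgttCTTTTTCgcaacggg
EEF2, chr19:3985449-3985478, minus strand: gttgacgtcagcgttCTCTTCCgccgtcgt
TPT1, chr13:45341169-45341198, minus strand: agcggctgagtcggcCTTTTCCgcccgctc
RACK1, chr5:181243892-181243921, minus strand: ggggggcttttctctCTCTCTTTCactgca
EIF4B, chr12:53006441-53006470, plus strand: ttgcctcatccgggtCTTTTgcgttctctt
EEF1B2, chr2:206159880-206159909, plus strand: ccggtctcttcgggtCCTTTTTCCTCTCTT
EEF1G, chr11:62573877-62573906, minus strand: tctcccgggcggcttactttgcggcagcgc

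The runs of EEF1A1, EEF2 and TPT1 are 7 bases long, that of RACK1 is 9 and that of EIF4B is 5. The run of EEF1B2 fills the window, and EEF1B2 has another annotated start without a run. The annotated start of EEF1G falls on an A, so that its run is 0 at that base. A C at the first base followed by at least 4 further C or T, searched at that position and on that strand only, was present in 6 of the 7 members with an entry. The same letters were present in 48 of 64 ribosomal protein genes and in 5.14% of 27305 genes (1404). Starts of PABPC1, EIF3E and EEF1D were not used here. The TPT1 start shown lies inside the counted interval, whose end is 45341284.

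The libraries held 103676557 to 124242039 counts with DMSO and 43266228 to 77891776 counts with SY-351, so that a floor of 3 counts lay between 0.0241 and 0.0693 CPM (counts per 1000000 counts of the library). The control libraries DMSO 1 and DMSO 2 stood apart from all others. Their TMM factors, which edgeR uses to make libraries comparable, were 0.661 and 0.657 against 1.61 and 1.21 in DMSO 3 and DMSO 4 and 1.02 to 1.07 with SY-351. The median gene was 2.71-fold lower in them than in DMSO 3 and 4 on the CPM scale. Their counts also came from genes richer in G and C: the GC content of the richest 600 bases of each mRNA, averaged over counts, was 66.1% and 66.3% against 60.3% to 60.4% in DMSO 3 and 4 and 59.8% to 60.0% with SY-351. The myeloperoxidase gene MPO, which defines promyelocytes, stood at 19049 to 33560 CPM in all 8 libraries. The 7 promyelocyte markers with a row, of 10 listed, summed to 24789 to 34363 CPM with DMSO and 39326 to 42780 CPM with SY-351, a sum that MPO dominates. Among them CEBPE, a factor of granulocyte differentiation, went the other way, from 253 to 878 CPM with DMSO to 68.1 to 79.3 CPM with SY-351 (log2 fold -3.37, edgeR adjusted p = 0.0228, and -1.35 without DMSO 1 and 2). SPI1, which encodes the myeloid factor PU.1, stood at 416 to 1766 CPM and 291 to 319 CPM and did not pass (log2 fold -2.33, edgeR adjusted p = 0.0855, and -0.040 without DMSO 1 and 2). CTSG, CD33, SRGN and LYZ varied widely among the controls, at 12.7 to 339, 2.04 to 104, 12.7 to 2455 and 149 to 2192 CPM. With SY-351 they stood at 606 to 681, 76.8 to 81.7, 3495 to 3855 and 4393 to 4710 CPM. The marker levels were therefore not even across the 8 libraries. Of 9 markers of T cells, B cells, red cells, epithelium or endothelium, PECAM1 reached 24.97 CPM and the other 8 stayed at or below 3.49 CPM. Their sum was 1.47 to 24.5 CPM with DMSO and 27.5 to 31.2 CPM with SY-351. The tests of the members and of the lists are therefore given for all 8 libraries and without DMSO 1 and 2, and the part of these differences in the results was not tested. Levels below are plain CPM, while log2 folds come from edgeR with TMM factors. Both are relative levels of bulk RNA without a stated spike-in, so that fewer cells and less RNA per cell cannot be told apart.

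With all 8 libraries, 0 of the 8 members passed the test in either direction, against 2.91% of genes tested that were higher and 13.6% that were lower with SY-351 (edgeR, Benjamini-Hochberg adjusted p below 0.05). At an unadjusted p under 0.05 the count was 1 of 8 in edgeR, TPT1, against 4927 of all 15472 genes tested. DESeq2 called TPT1 higher and 0 members lower, against 8.9% and 24.6% of genes. Without DMSO 1 and 2, 5 of the 8 were higher (EEF1A1, EEF1G, TPT1, PABPC1 and RACK1) and 0 were lower, against 21.9% and 26.4% of genes.

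EEF1A1, which delivers aminoacyl-tRNA, measured 77.8, 66.5, 9138 and 10451 CPM in DMSO 1 to 4 and 18721, 17471, 17910.0 and 17845 CPM in SY-351 1 to 4. Each SY-351 library was above each DMSO library, and DMSO 1 and 2 lay 136-fold below DMSO 3 and 4. Ordered by counts, EEF1A1 had rank 2 of all genes in every SY-351 library and in DMSO 3 and 4, but ranks 2334 and 2625 in DMSO 1 and 2. The means were 4933 ± 5639 CPM with DMSO and 17987 ± 526 CPM with SY-351 (SD, n = 4 each). The log2 fold was 2.24 ± 1.33 over all libraries (± SE, edgeR adjusted p = 0.284) and did not pass the test. It was 1.29 ± 0.18 without DMSO 1 and 2 (edgeR adjusted p = 2.51e-12), and EEF1A1 rose.

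EEF1G, the gamma subunit of the exchange complex, had the same pattern at a lower level. Its values were 17.4, 12.6, 2530.3 and 2698 CPM with DMSO and 5219, 5002, 4680.2 and 5126 CPM with SY-351. DMSO 1 and 2 were 174-fold below DMSO 3 and 4, and the groups did not overlap. EEF1G had a log2 fold of 2.32 ± 1.36 over all libraries (edgeR adjusted p = 0.28) and 1.36 ± 0.18 without DMSO 1 and 2 (edgeR adjusted p = 2.75e-13), where EEF1G rose. Per EEF1G count, DMSO 1 to 4 held 4.48, 5.27, 3.61 and 3.87 counts of EEF1A1, and the SY-351 libraries 3.48 to 3.83. Both genes therefore moved through the 8 libraries with a ratio that stayed within 3.48 to 5.27 while each level varied more than 100-fold.

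EEF2, the translocation factor, went the other way among the controls. It measured 20403, 18519.6, 8065 and 8289 CPM with DMSO and 7903, 7676, 7563 and 7247 CPM with SY-351. DMSO 1 and 2 were 2.38-fold above DMSO 3 and 4, and each SY-351 library was below each DMSO library, by a small margin against DMSO 3. The means were 13819 ± 6561 and 7597 ± 273 CPM (SD, n = 4 each). For EEF2 the log2 fold was -1.28 ± 0.71 with all libraries (edgeR adjusted p = 0.255) and turned to 0.31 ± 0.17 without DMSO 1 and 2 (edgeR adjusted p = 0.117). With total counts in place of TMM factors and without DMSO 1 and 2 it was -0.11 ± 0.04 (edgeR adjusted p = 0.0355), so that the sign depended on the scaling. Over all genes that scaling shifted the median from 0.01 to -0.45, and EEF2 lay above the median under both.

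The balance between both elongation factors can be read without any scaling between libraries, since their counts share a library. Per EEF2 count, DMSO 1 to 4 held 0.00381, 0.00359, 1.13 and 1.26 counts of EEF1A1. With SY-351 the ratio was 2.37, 2.28, 2.37 and 2.46, above every control. The ratio shows unequal change and not which of the genes changed.

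**Figure D1:**
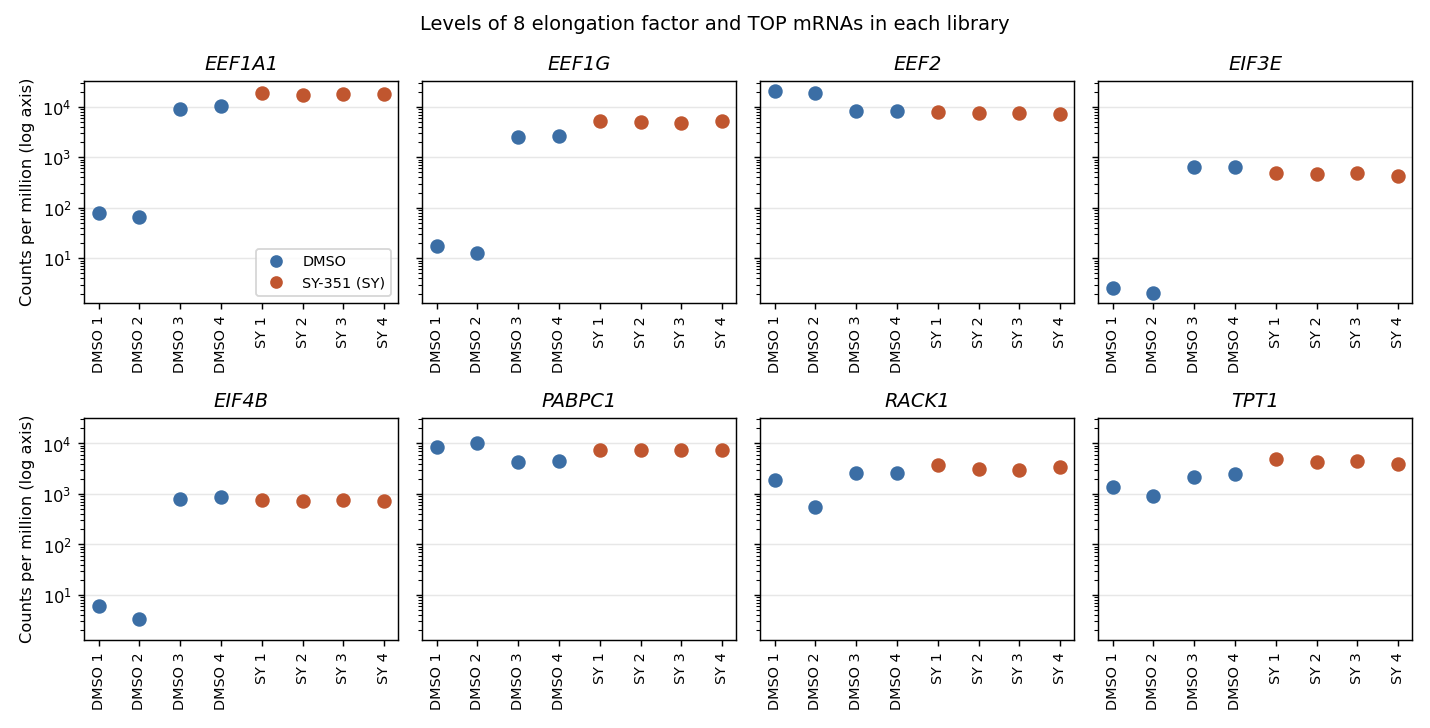
Level of the 8 members with counts in each library, in CPM on a log axis; each panel is a gene, each point a library, with DMSO and SY-351 libraries side by side. EEF1A1, EEF1G, EIF3E and EIF4B drop by more than 100-fold in DMSO 1 and 2, while EEF2 and PABPC1 are highest there and the 4 SY-351 libraries lie close together in every panel.

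TPT1 encodes the translationally controlled tumour protein, a growth-related protein whose mRNA is a textbook TOP mRNA. It measured 1377, 929, 2165 and 2511 CPM with DMSO and 4978.5, 4387, 4545 and 3997 CPM with SY-351. The groups did not overlap, and DMSO 3 and 4 were 2.03-fold above DMSO 1 and 2. The means were 1745 ± 722 and 4477 ± 406 CPM (SD, n = 4 each). TPT1 had a log2 fold of 1.31 ± 0.41 with all libraries (edgeR adjusted p = 0.0604) and 1.35 ± 0.18 without DMSO 1 and 2 (edgeR adjusted p = 3.99e-13). With DMSO 1 and 2 as the only controls its log2 fold was 1.15, so that with TMM factors TPT1 had a similar fold against either pair of controls, although their plain CPM differed. It passed over all 8 libraries with DESeq2 (adjusted p = 0.000723), with total count scaling (edgeR adjusted p = 0.0354) and without DMSO 3 (edgeR adjusted p = 0.0373).

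RACK1 encodes a scaffold protein of the small ribosomal subunit. It measured 1927, 548, 2587 and 2583 CPM with DMSO and 3753, 3092, 3029 and 3401 CPM with SY-351. All SY-351 libraries were above all DMSO libraries, and DMSO 2 was the lowest by far. For RACK1 the log2 fold was 0.77 ± 0.48 with all libraries (edgeR adjusted p = 0.311) and 0.79 ± 0.17 without DMSO 1 and 2 (edgeR adjusted p = 2.06e-05). Of the 5 members that rose in the latter comparison, RACK1 had the smallest fold.

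PABPC1, the cytoplasmic poly(A)-binding protein that links the tail of an mRNA to initiation, measured 8613, 10058, 4346 and 4490.4 CPM with DMSO and 7298, 7398, 7347 and 7388 CPM with SY-351. The SY-351 libraries lay between both pairs of controls, so that the groups overlapped. With SY-351 the spread was 45.7 CPM (SD, n = 4) around a mean of 7358 CPM, against 2900.4 CPM around 6877 CPM with DMSO. For PABPC1 the log2 fold was -0.30 ± 0.66 with all libraries (edgeR adjusted p = 0.776) and 1.16 ± 0.18 without DMSO 1 and 2 (edgeR adjusted p = 3.69e-10), a change of sign. With DMSO 1 and 2 as the only controls it was -1.15.

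EIF3E, a subunit of the eIF3 complex that holds the small ribosomal subunit during initiation, measured 2.54, 2.05, 635 and 649 CPM with DMSO and 479, 471, 489 and 435 CPM with SY-351. DMSO 1 and 2 held 272 and 213 counts of it, a level 279.7-fold below DMSO 3 and 4 and far above the floor. The groups overlapped, although every SY-351 library was below DMSO 3 and 4. The log2 fold was 0.93 ± 1.37 with all libraries (edgeR adjusted p = 0.663) and -0.033 ± 0.16 without DMSO 1 and 2 (edgeR adjusted p = 0.901). With total count scaling and without DMSO 1 and 2 EIF3E fell, by 0.45 ± 0.05 on the log2 scale (edgeR adjusted p = 1.77e-05), which is the same value as the median of all genes under that scaling, -0.45.

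EIF4B, which stimulates the helicase that unwinds mRNA leaders, measured 5.92, 3.39, 788 and 885 CPM with DMSO and 764, 740.5, 748 and 728 CPM with SY-351. DMSO 1 and 2 were 179.8-fold below DMSO 3 and 4, the groups overlapped, and the SY-351 libraries stood just below DMSO 3. The log2 fold was 1.21 ± 1.30 with all libraries (edgeR adjusted p = 0.551) and 0.24 ± 0.17 without DMSO 1 and 2 (edgeR adjusted p = 0.235). It turned to -0.17 ± 0.05 without DMSO 1 and 2 under total count scaling (edgeR adjusted p = 0.0166). Per EIF4B count, DMSO 1 to 4 held 0.428, 0.607, 0.805 and 0.733 counts of EIF3E, and the SY-351 libraries 0.597 to 0.653.

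**Figure D2:**
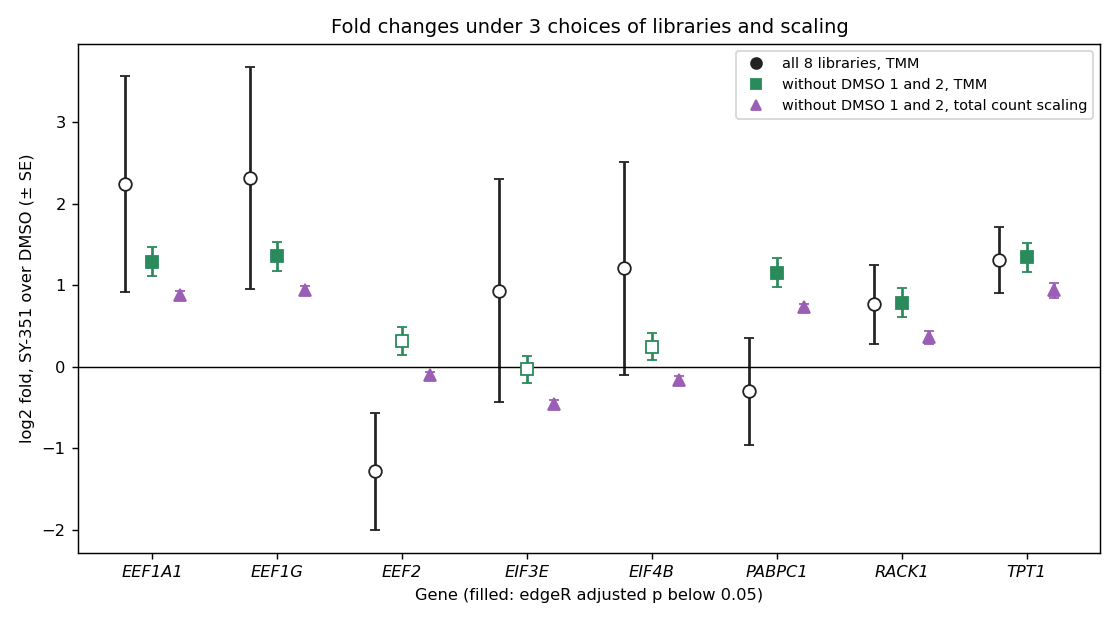
Log2 fold of the 8 members, SY-351 over DMSO, with SE bars, over all 8 libraries (circles), without DMSO 1 and 2 (squares) and without them under total count scaling (triangles); filled symbols passed edgeR's adjusted p of 0.05. The bars narrow without DMSO 1 and 2, where with TMM factors EEF1A1, EEF1G, TPT1, PABPC1 and RACK1 lie between 0.79 and 1.36 and EEF2, EIF4B and EIF3E between -0.033 and 0.31.

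Read by overlap alone, 4 members had every SY-351 library above every DMSO library (EEF1A1, EEF1G, TPT1 and RACK1), against 11.2% of all genes tested. The only member with every SY-351 library below was EEF2, against 21.4% of genes. Against DMSO 3 and 4 alone the SY-351 mean CPM was 1.84-fold for EEF1A1, 1.92-fold for EEF1G and TPT1, 1.67-fold for PABPC1 and 1.28-fold for RACK1. In the same comparison of plain CPM it was 0.929-fold for EEF2, 0.891-fold for EIF4B and 0.730-fold for EIF3E. Without DMSO 1 and 2 and with total count scaling the first 5 stayed higher and the last 3 were called lower, against 13.1% and 43.3% of genes. Under either scaling the order of the folds put EEF1A1, EEF1G and TPT1 first and EIF3E last.

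The 8 members together took a nearly constant share of the counts in the controls. The share was 3.24%, 3.01%, 3.03% and 3.26% in DMSO 1 to 4, although its makeup differed between both pairs. With SY-351 the share was 4.91%, 4.62%, 4.63% and 4.62%, above every control. In DMSO 1 and 2 most of it came from EEF2 and PABPC1.

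**Figure D3:**
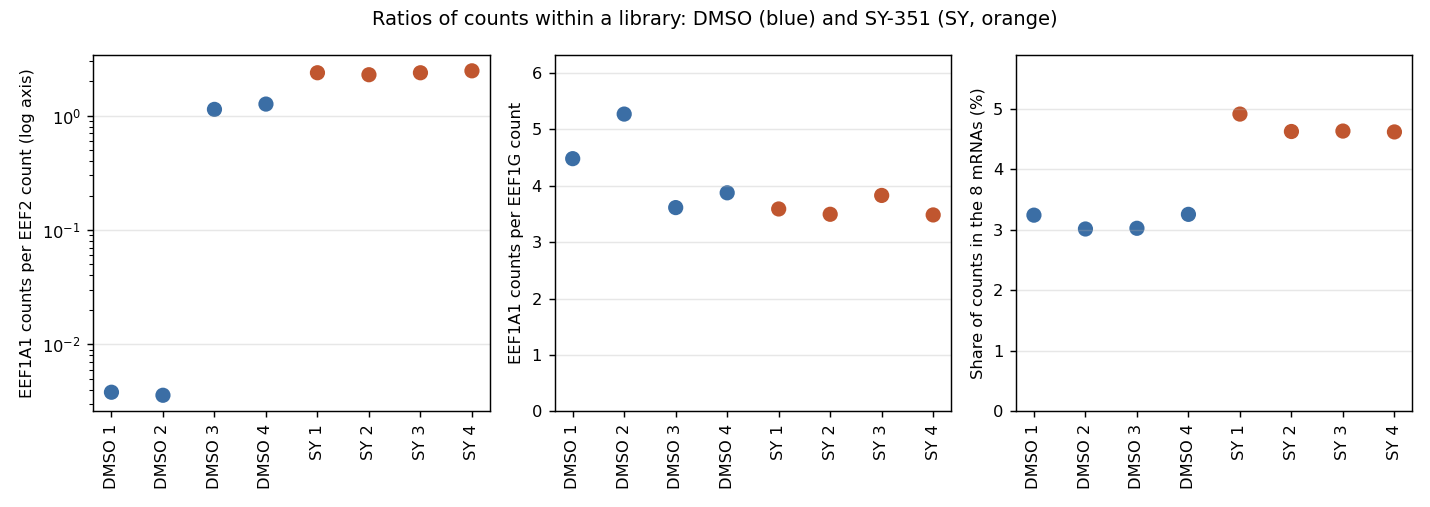
EEF1A1 counts per EEF2 count (left, log axis), EEF1A1 counts per EEF1G count (middle) and the percent of all counts held by the 8 members (right); each point is a library, DMSO in blue and SY-351 (SY) in orange. EEF1A1 per EEF2 is near 0.004 in DMSO 1 and 2, 1.13 to 1.26 in DMSO 3 and 4 and 2.28 to 2.46 with SY-351, while EEF1A1 per EEF1G stays between 3.48 and 5.27.

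Levels of different genes were compared per kilobase of mRNA. The counts also cover introns, so that reads in introns enter these levels to an extent that was not tested. The counted interval was 47503 bases against an mRNA of 1543 bases in EIF3E, and 5284 against 4441 bases in EEF1A1. With SY-351 EEF1A1 led at 4050.2 ± 118 CPM per kb, followed by EEF1G at 3288 ± 154, EEF2 at 2401 ± 86.3, RACK1 at 2366 ± 237 and PABPC1 at 2111 ± 13.1 (SD, n = 4). TPT1 at 929.96 ± 84.4, EIF3E at 304 ± 15.3 and EIF4B at 179.7 ± 3.64 CPM per kb came last. EEF2 and RACK1 overlapped in that order, and the other neighbours did not. In DMSO 3 and 4 the mean level per kb was highest for EEF2 (2584), then EEF1A1 (2205), RACK1 (1842), EEF1G (1717), PABPC1 (1268), TPT1 (486), EIF3E (416) and EIF4B (202). In DMSO 1 and 2 the order was EEF2 (6151), PABPC1 (2679), RACK1 (882), TPT1 (239.6), EEF1A1 (16.2), EEF1G (9.85), EIF3E (1.49) and EIF4B (1.12). EEF2 therefore headed the members in both pairs of controls, and EEF1A1 with SY-351. The annotated mRNAs of EEF1A1 (4441 bases) and TPT1 (4814 bases) are long models, and a shorter mRNA would raise their levels per kb.

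The low levels of some members in DMSO 1 and 2 can be placed among all genes tested. On the log2 ratio of DMSO 1 and 2 over DMSO 3 and 4, EIF3E stood at percentile 0.704, EIF4B at 2.19, EEF1G at 2.37 and EEF1A1 at 3.48. RACK1 and TPT1 stood near the middle, at 56.3 and 57.0, and PABPC1 and EEF2 near the top, at 87.9 and 90.2. The GC content of the richest 600 bases of the mRNA was 41.7% in EIF3E, 60.0% in EIF4B, 57.5% in EEF1G and 64.8% in EEF1A1. It was 57.3% in RACK1, 54.7% in TPT1, 74.7% in PABPC1 and 65.3% in EEF2. In this measure EIF3E was poor in G and C (percentile 1.22 of genes tested), PABPC1 was rich, and EEF1A1 and EEF2 were alike. Over the whole mRNA the GC content was 38.2% in EIF3E, 46.4% in EIF4B, 54.8% in EEF1G and 46.1% in EEF1A1. It was 53.9% in RACK1, 44.0% in TPT1, 51.1% in PABPC1 and 59.9% in EEF2, so that EEF1A1 and EEF2 differed there. The part of GC content in the ratio was not tested.

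Several members have copies that could take or lend reads. GENCODE lists, by name, 39 pseudogenes of EEF1A1, 14 of TPT1, 13 of PABPC1, 9 of EIF4B, 8 of EEF1G, 2 of EIF3E and 0 of EEF2 and RACK1, and 8 each of EEF1B2 and EEF1D. The counting command had no option to keep reads that map to several places, so that the levels of members with many copies are uncertain. The counted intervals of the 8 members overlapped 0 other counted rows. They run from start to end of a gene with introns included: EEF1A1 (NM_001402) on GRCh38 chr6:73515749-73521032, EEF1G (NM_001404) on chr11:62559595-62573891, EEF2 (NM_001961) on chr19:3976055-3985463 and TPT1 (NM_001286272) on chr13:45333470-45341284, all on the minus strand. PABPC1 (NM_002568) is at chr8:100702915-100722088, EIF3E (NM_001568) at chr8:108201215-108248717 and RACK1 (NM_006098) at chr5:181236900-181243906, all on the minus strand, and EIF4B (NM_001417) at chr12:53006455-53042215 on the plus strand. The intervals of EEF2, RACK1 and TPT1 contain snoRNA genes (SNORD37 in EEF2, SNORD95 and SNORD96A in RACK1, SNORA31 in TPT1).

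Paralogs gave a further view. EEF1A2, the eEF1A form of muscle and neurons, stayed at 0.459 to 1.72 CPM in all 8 libraries. Its log2 fold was -0.93 over all libraries (edgeR adjusted p = 0.407) and 1.13 without DMSO 1 and 2 (edgeR adjusted p = 0.039, and 0.19 under total count scaling). PABPC4, another cytoplasmic poly(A)-binding protein, measured 596, 659, 269 and 282 CPM across DMSO 1 to 4 and 433 to 469 CPM with SY-351, which lay between both pairs of controls as for PABPC1. PABPC4 had a log2 fold of -0.40 over all libraries (edgeR adjusted p = 0.671) and rose without DMSO 1 and 2, by 1.14 ± 0.17 (edgeR adjusted p = 1.21e-10). PABPC3, an intronless copy of PABPC1, measured 21.6, 28.97, 97.8 and 103.5 CPM with DMSO and 175, 175, 179 and 175 CPM with SY-351. It was higher with SY-351 over all libraries, by 1.59 ± 0.34 on the log2 scale (edgeR adjusted p = 0.0181) and by 1.22 without DMSO 1 and 2. PABPC3 had 22.5 to 24.3 counts per 1000 counts of PABPC1 in DMSO 3, DMSO 4 and all SY-351 libraries, and 2.51 and 2.88 in DMSO 1 and 2. Since PABPC3 resembles PABPC1 closely in sequence, which of them its reads came from was not tested.

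The genes most like EEF1A1 across the 8 libraries, by root mean square distance of centred log2 CPM among 8308 genes with a mean of at least 10 CPM, were PIGK, RPS7, RPS3A, SRGN and RPL37A. Their distances were 0.0652, 0.0764, 0.0888, 0.116 and 0.119, against a median of 3.17 over all candidates, and EEF1G stood at 0.196. PIGK encodes a subunit of the GPI transamidase, SRGN the granule proteoglycan serglycin, and the other 3 ribosomal proteins. Their log2 folds were 2.02 (SRGN) to 2.46 (RPL37A) over all libraries and 1.06 (SRGN) to 1.503 (RPL37A) without DMSO 1 and 2. These folds are a description, because the same libraries chose the genes.

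The other genes of the pathway were counted by list, to be read against all genes tested, of which 2.91% were higher and 13.6% lower over all 8 libraries and 21.9% and 26.4% without DMSO 1 and 2. Of 73 ribosomal protein genes, the largest group of TOP mRNAs, 3 were higher and 0 lower over all 8 libraries, with a median log2 fold of 2.27. Without DMSO 1 and 2, 72 were higher and 0 lower, with a median of 1.42 against 0.97 for the 8 members and 0.01 for all genes. Of 18 other TOP mRNAs, 0 were higher and 1 lower over all libraries, and 12 higher and 2 lower without DMSO 1 and 2 (median 0.81). IPO7, an import receptor, was the gene lower over all libraries, at -1.12 ± 0.28 (edgeR adjusted p = 0.0295) and -1.33 without DMSO 1 and 2. NAP1L1, a histone chaperone, had a log2 fold of 1.09 in both fits, with an SE of 0.33 and an edgeR adjusted p of 0.0544 over all libraries, and it rose without DMSO 1 and 2 (edgeR adjusted p = 3.12e-09).

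EIF3E shares its complex with other eIF3 subunits, of which 11 were tested. Over all libraries 0 passed in edgeR, where 3 had an unadjusted p under 0.05 and DESeq2 called 3 lower, and without DMSO 1 and 2, 5 were higher and 2 lower. EIF3A, the largest subunit, stood at -1.05 ± 0.36 (edgeR adjusted p = 0.0826) and fell without DMSO 1 and 2, at -1.41 (edgeR adjusted p = 1.88e-18). EIF3J, a loosely bound subunit, stood at -0.96 ± 0.36 (edgeR adjusted p = 0.103) and -0.31 without DMSO 1 and 2. The subunits therefore did not share a direction, and EIF3E at -0.033 lay between them.

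Of 15 cap-binding and poly(A)-binding factors, which work with EIF4B and PABPC1, 1 was higher (PABPC3) and 2 lower over all libraries, and 5 higher and 6 lower without DMSO 1 and 2. PAIP1, a partner of PABPC1, was lower at -2.51 ± 0.59 (edgeR adjusted p = 0.0251), and at -1.05 without DMSO 1 and 2. Of 19 other initiation factors 0 were higher and 2 lower, and 5 higher and 10 lower without DMSO 1 and 2. EIF2B2, a subunit of the exchange factor of eIF2, was lower at -2.05 ± 0.28 (edgeR adjusted p = 0.00491), and EIF2S2, the beta subunit of eIF2, at -2.42 ± 0.50 (edgeR adjusted p = 0.0163). Their folds without DMSO 1 and 2 were -1.93 and -1.31.

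Of 14 other elongation, recycling and release factors, 0 were higher and 2 lower over all libraries, and 2 higher and 9 lower without DMSO 1 and 2 (median -0.39). The 2 lower calls over all libraries are near the 13.6% of all genes, while 26.4% of all genes were lower without DMSO 1 and 2. SBDS, which helps to make the large subunit ready for translation, was lower at -1.57 ± 0.28 (edgeR adjusted p = 0.0101). GSPT2, a release factor eRF3, was lower at -2.53 ± 0.52 (edgeR adjusted p = 0.0162). These folds were -1.23 and -1.40 without DMSO 1 and 2. In that comparison the elongation factors EEF1A1 and EEF1G rose, as did 2 genes of this list, and EEF2 did not pass (0.31, edgeR adjusted p = 0.117).

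Of 15 enzymes that modify elongation factors, 4 were lower and 0 higher over all libraries, and 9 lower and 1 higher without DMSO 1 and 2 (median -0.46). Of all genes tested, 13.6% were lower and 2.91% higher over all libraries, and 26.4% and 21.9% without DMSO 1 and 2, so that lower calls outnumbered higher ones among all genes too. METTL13, one of several methyltransferases of eEF1A in the list, measured 57.2 ± 25.3 CPM with DMSO and 10.6 ± 0.436 CPM with SY-351 (SD, n = 4 each). Its log2 fold was -2.45 ± 0.23 over all libraries (edgeR adjusted p = 0.00288) and -2.48 without DMSO 1 and 2, nearly the same in both fits. EEF2KMT, the lysine methyltransferase of eEF2, was lower at -1.47 ± 0.28 (edgeR adjusted p = 0.0126), and at -1.25 without DMSO 1 and 2.

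Of 20 regulators of the translation of TOP mRNAs, 0 were higher and 2 lower over all libraries, and 7 higher and 4 lower without DMSO 1 and 2 (median 0.07). AKT1S1 and RPTOR, both partners of mTOR in mTORC1, were lower at -2.56 ± 0.65 (edgeR adjusted p = 0.0334) and -2.13 ± 0.58 (edgeR adjusted p = 0.0395). Their folds shrank to -0.82 and -0.68 without DMSO 1 and 2. LARP1, which binds the TOP motif, stood at -1.05 over all libraries (edgeR adjusted p = 0.055). It was lower without DMSO 1 and 2, at -0.77 (edgeR adjusted p = 4.41e-06). The calls of METTL13 and EIF2B2 held without any single library. Those of IPO7, SBDS, GSPT2, EEF2KMT, PABPC3, PAIP1, EIF2S2, AKT1S1 and RPTOR ended when any SY-351 library was left out of the 8 (edgeR adjusted p = 0.0539 to 0.126). PAIP1 also lost its call without DMSO 1 (edgeR adjusted p = 0.0594), and AKT1S1 and RPTOR without DMSO 1 (0.0775 and 0.0929) or DMSO 2 (0.0719 and 0.0874).

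The scaling moved these splits. With total counts in place of TMM factors and without DMSO 1 and 2, 72 ribosomal protein genes were still higher and 0 lower, and other TOP mRNAs went to 9 higher and 5 lower. The other lists went to 5 and 5 (eIF3), 5 and 10 (cap and poly(A) binding), 2 and 13 (initiation), 1 and 10 (elongation, recycling and release), 1 and 13 (modifiers) and 1 and 12 (regulators), in that order of higher and lower. Over all 8 libraries that scaling gave 0 higher and 4 lower cap-binding and poly(A)-binding factors, with PABPC3 no longer called (edgeR adjusted p = 0.106), nor IPO7 (0.111). The 8 snoRNA host genes listed with a TOP start were not analysed here.

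**Figure D4:**
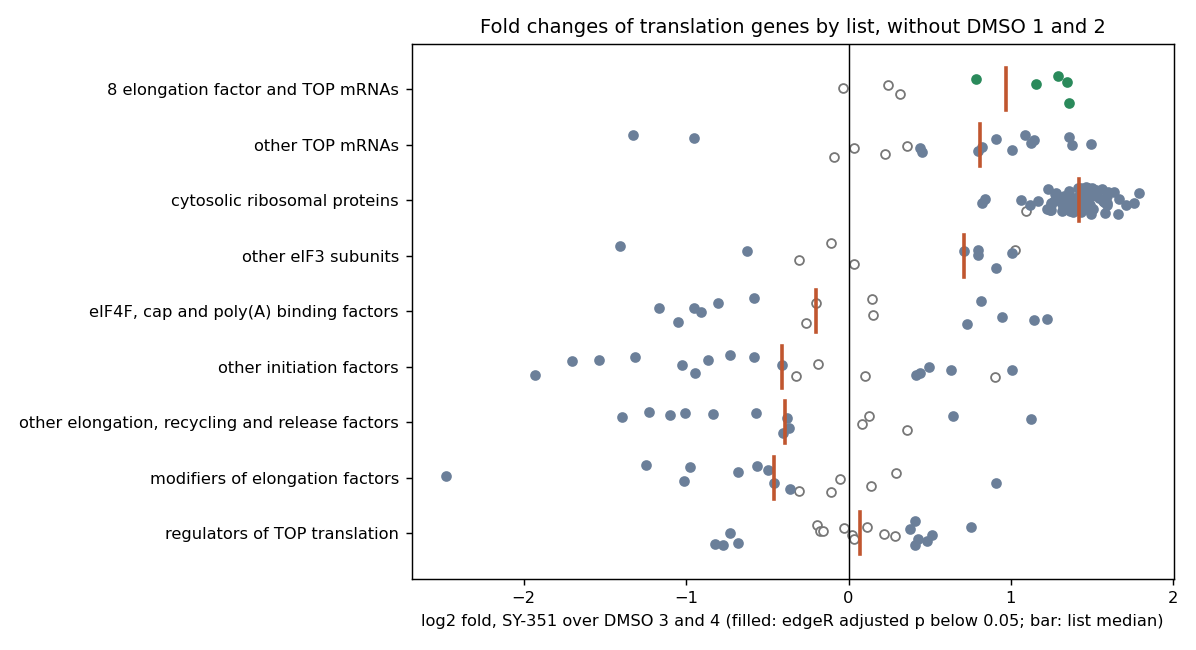
Log2 fold, SY-351 over DMSO, of every tested gene of the members and of each list, without DMSO 1 and 2; points are genes, filled where edgeR's adjusted p was below 0.05, and vertical bars are medians. With TMM factors, ribosomal proteins center on 1.42 and the members on 0.97. Cap-binding and poly(A)-binding factors, other initiation factors, other elongation factors and modifiers of elongation factors center below 0.

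Splicing was described from the authors' deposited table, which gives an expected inclusion (the share of a variation's transcripts that use a junction or keep an intron, from 0 to 1) and the probability that it differed by at least 0.20 between groups, with no values per sample. Of the 3 members with a variation, 2 passed a probability of 0.95, against 55.7% of 6716 variations in 3700 genes.

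EEF1D encodes the delta subunit of the exchange complex and is known for a long form made with an extra exon. In the authors' deposited table its variation has 11 junctions into 1 exon. The annotated junction over an intron of 6609 bases fell from an inclusion of 0.807 in control to 0.243 with SY-351, at a probability of 1. A junction over 1976 bases that the authors' deposited table marks as absent from the annotation rose from 0.011 to 0.587, also at a probability of 1. Another such junction, over 1979 bases, stood at 0 in control and 0.126 with SY-351. The remaining junctions each had an inclusion of at most 0.07 in both groups in the authors' deposited table. The change of EEF1D was large for this table, since 8.20% of its variations had a larger difference, against a median of 0.315 for the largest difference of a variation.

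RACK1 had a variation with a retained intron of 95 bases. In the authors' deposited table its inclusion fell from 0.903 to 0.559 (probability 0.989), while an annotated junction over 182 bases rose from 0.064 to 0.404 (probability 0.992). The junction that removes the 95 bases is marked as absent from the annotation and stood at 0.034 in both groups. The retained intron is therefore bounded by a rarely used junction outside the annotation. A larger difference was listed for 37.6% of variations, against 8.20% for EEF1D.

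EIF3E did not pass. Its annotated junction over 1379 bases had an inclusion of 0.984 in control and 0.742 with SY-351 in the authors' deposited table (probability 0.727). Both other junctions, over 2316 and 14097 bases and marked as absent from the annotation, stood at 0.008 each in control and at 0.171 and 0.087 with SY-351. The samples behind these values are not given in the sources used here.

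**Figure D5:**
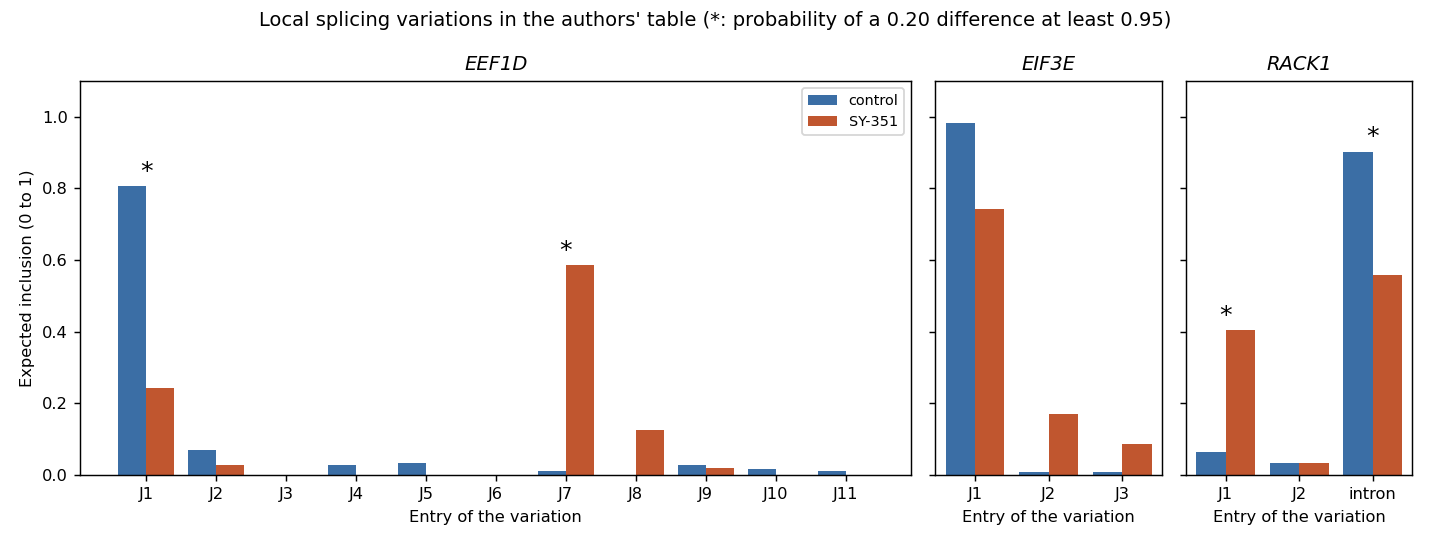
Expected inclusion, from 0 to 1, of each junction (J) and of the retained intron in the variations of EEF1D, EIF3E and RACK1, as bars for control and SY-351, as the authors' deposited table gives them, without error bars because it has no values per sample, and with stars at a probability of at least 0.95. In EEF1D the starred junctions go from 0.807 to 0.243 and from 0.011 to 0.587, and in RACK1 the retained intron drops from 0.903 to 0.559.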

How the data were processed

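Polyadenylated RNA of HL60 cells was sequenced from libraries made with an Illumina TruSeq kit, per the labels' protocols. The authors deposited whole-number read counts made with featureCounts 1.6.2 at strand setting 1, per the file headers, without options that keep multi-mapping or overlapping reads. Whether the kit preserved strand is not in the labels, and antisense reads may therefore be mixed in. The 18093 rows are RefSeq intervals with their introns. The submitters' processing notes name GRCh38 and DESeq2. How technical repeats entered a column is not given in the sources used here.

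Identifiers were matched to symbols through RefSeq (17871 rows) and GENCODE release 29 (132 rows). Another 90 kept their identifier, and 14 rows that shared a symbol were set aside. The test was edgeR 4.0.16 (R 4.3.3) on all 8 libraries with a term for group: TMM factors, the filterByExpr filter, a robust quasi-likelihood fit, glmQLFTest on both sides and Benjamini-Hochberg adjustment over all genes tested. Each SE was obtained as log2 fold over the square root of F. GC content and mRNA length came from the GENCODE transcript linked to the same RefSeq identifier, and pseudogenes were counted by name. Tables were made with Python 3.11.15, pandas 2.3.3 and NumPy 2.4.6, and the pipeline was tested on simulated counts.

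The second deposited file is the authors' own splicing comparison, whose inclusion fractions, differences and probabilities carry MAJIQ and Voila column names, per the file headers. The authors subtracted SY-351 from control in 100% of entries that differ by at least 0.05, and the sign was turned. The table uses another build, so that its coordinates are not printed. It sat in a folder named for the removal of outliers, and the samples removed are not given in the sources used here.

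Members, lists, tests and alternatives were chosen with earlier results of these data known. Named besides the members were from each list the 2 genes of smallest adjusted p (ribosomal proteins and markers left out), the 5 genes nearest to EEF1A1 and CDK7, whose counts were not analysed here. EEF1A2, PABPC4 and LARP1 were added as relatives after their values were seen. Alternatives were DESeq2 1.42.0, total count scaling, a replicate block, no DMSO 1 and 2, DMSO 1 and 2 only, DESeq2 size factors in edgeR, no low-count filter and each library left out.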

Additional observations from a re-analysis of the deposited data

Results flagged for a closer look

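In 56 groups of 4 libraries, 3 had a library whose gap to its nearest neighbour exceeded Dixon's 95% critical share of the group's range, and chance flags about 1 in 20 groups. The share of counts in the 8 members with SY-351 had a gap of 0.951 of the range, since SY-351 1 stood at 4.91% and the others at 4.62% to 4.63%. GSPT2 with SY-351 had a gap of 0.883, since SY-351 3 stood at 2.83 CPM and the others at 3.33 to 3.40 CPM. PABPC3 with SY-351 had a gap of 0.856, since SY-351 3 stood at 178.9 CPM and the others at 174.7 to 175.3 CPM.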

How the results depend on the processing

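Over all 8 libraries 450 genes were higher and 2100 lower. DESeq2 gave 1377 and 3806, total count scaling 215 and 2484, and DMSO 1 and 2 as the only controls 6372 and 5996. Without DMSO 1 and 2 there were 3466 and 4172, with DESeq2 3469 and 4054, and with total count scaling 2065 and 6848. Leaving out 1 library gave 61 to 1885 higher and 473 to 3438 lower: 1885 and 3438 without DMSO 3, 674 and 2500 without DMSO 4, 196 and 1264 without DMSO 1, 246 and 1458 without DMSO 2, and 61 to 76 and 473 to 602 without any SY-351 library. Members called higher numbered 0 over all libraries, 1 with DESeq2, 1 with total count scaling, 0 to 1 without 1 library (1 without DMSO 3), 5 with DMSO 1 and 2 as the only controls, and 5 without DMSO 1 and 2, also with DESeq2 or total count scaling. Members called lower numbered 0 over all libraries, 2 with DMSO 1 and 2 as the only controls and 3 without DMSO 1 and 2 under total count scaling. With a replicate block 0 genes were higher and 0 lower in edgeR (3649 at an unadjusted p under 0.05). Without DMSO 1 and 2 the replicate block gave 1218 and 2139 genes and 4 members higher, with RACK1 lost (edgeR adjusted p = 0.061). Samples of the same number deviated from their group means with correlations of -0.18 to 0.01. The deviations with DMSO hold the split of DMSO 1 and 2 from DMSO 3 and 4, so that these correlations cannot tell whether replicates were paired. Signs turned without DMSO 1 and 2 for EEF2 (0.31, 0.31 with DESeq2, 0.29 with the replicate block), EIF3E (-0.033, -0.037 with DESeq2, -0.041 with the replicate block, -0.45 with total count scaling) and EIF4B (-0.17 with total count scaling). PABPC1 turned to 0.074 with the replicate block and 0.10 with total count scaling, and ranged from -0.57 (without DMSO 3) to 0.12 (without DMSO 2) with 1 library left out. It was 1.16 without DMSO 1 and 2, 1.15 with DESeq2, 1.17 with the replicate block and 0.74 with total count scaling. The cause was not tested. Among values of single genes 345 kept direction and side of the threshold, 70 newly passed, 56 no longer passed and 15 turned. The 8 members with counts all stayed well above the floor, since the lowest held 213 counts in a library.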
